A study of Mus musculus with 6 samples.

Results

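The enzymes that make, modify and break down ceramides and the other barrier lipids of the epidermis were followed in mouse keratinocytes after exposure to recombinant IL-33, an alarm cytokine that is related to interleukin 1. The set held 32 of the 52550 genes in the deposited gene table and was taken as a list of symbols that covers the pathway from its first enzyme to the release of sphingosine. All 32 symbols were found. Messenger RNA was sequenced from primary keratinocytes of the skin epidermis of wild type C57BL/6 mice at 0 to 2 days after birth. The IL-33 group had 3 libraries from cells cultured for 2 days and then given recombinant IL-33 for 12 h, and the untreated group had 3 libraries from cells that did not receive it. The cells of both groups were cut loose from the dermis with dispase and trypsin and grown in 48-well plates, with no other allele or agent named in the labels. No dose is stated in the sources used. Whether libraries of 1 group stem from different cultures or animals is not stated in the labels either, so p-values here reflect the spread among these libraries alone, and part of that spread may be technical.

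The water barrier of the skin is a stack of lipid sheets between the cells of the cornified layer, built from ceramides, cholesterol and free fatty acids. A ceramide is made when serine palmitoyltransferase joins serine to an activated fatty acid, the product is reduced, and a ceramide synthase attaches a further fatty acid. Keratinocytes lengthen some of these fatty acids to an ultra-long chain, hydroxylate the far end and attach linoleate, which gives the acylceramides found in the epidermis. Precursors are stored as glucosylceramide and sphingomyelin in lamellar bodies and are released as the cells cornify.

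The promoters shown first belong to Elovl4, the member with the smallest p-value between the groups, and to the paralog pairs Sptssa and Sptssb and Sptlc2 and Sptlc3, which differed most plainly in level within the first enzyme. Each runs 5′ to 3′ on the strand of its gene, from 250 bases before to 50 bases after the start site in RefSeq on GRCm38.p6. Capitals mark each CG dinucleotide (CpG). The windows are chr9:83806256-83806555 on the minus strand for Elovl4, chr12:54656523-54656822 on the minus strand for Sptssa, chr3:69859845-69860144 on the minus strand for Sptssb, chr12:87388306-87388605 on the minus strand for Sptlc2 and chr2:139493663-139493962 on the plus strand for Sptlc3.
Elovl4: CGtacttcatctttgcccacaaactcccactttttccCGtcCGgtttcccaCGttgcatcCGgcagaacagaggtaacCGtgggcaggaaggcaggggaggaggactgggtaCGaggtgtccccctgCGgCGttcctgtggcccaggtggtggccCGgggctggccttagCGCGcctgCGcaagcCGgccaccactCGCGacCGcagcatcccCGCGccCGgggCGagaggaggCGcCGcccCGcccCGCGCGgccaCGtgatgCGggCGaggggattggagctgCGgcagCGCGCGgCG
Sptssa: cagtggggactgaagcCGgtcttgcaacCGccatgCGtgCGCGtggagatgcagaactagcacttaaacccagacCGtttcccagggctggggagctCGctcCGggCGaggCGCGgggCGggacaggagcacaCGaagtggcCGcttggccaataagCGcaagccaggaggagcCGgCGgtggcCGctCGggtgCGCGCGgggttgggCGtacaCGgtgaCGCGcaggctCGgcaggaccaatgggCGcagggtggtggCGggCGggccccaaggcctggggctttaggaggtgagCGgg
Sptssb: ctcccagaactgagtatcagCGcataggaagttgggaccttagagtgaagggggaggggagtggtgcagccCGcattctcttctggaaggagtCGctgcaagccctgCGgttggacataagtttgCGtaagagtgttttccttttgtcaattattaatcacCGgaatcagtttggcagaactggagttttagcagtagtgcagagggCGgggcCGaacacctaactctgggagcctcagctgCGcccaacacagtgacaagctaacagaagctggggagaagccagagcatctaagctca
Sptlc2: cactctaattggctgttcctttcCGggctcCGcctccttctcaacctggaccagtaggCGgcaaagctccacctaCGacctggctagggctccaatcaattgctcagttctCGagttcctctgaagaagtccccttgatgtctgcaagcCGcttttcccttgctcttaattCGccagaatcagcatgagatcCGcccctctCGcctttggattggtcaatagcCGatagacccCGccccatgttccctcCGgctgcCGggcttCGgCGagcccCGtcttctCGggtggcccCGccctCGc
Sptlc3: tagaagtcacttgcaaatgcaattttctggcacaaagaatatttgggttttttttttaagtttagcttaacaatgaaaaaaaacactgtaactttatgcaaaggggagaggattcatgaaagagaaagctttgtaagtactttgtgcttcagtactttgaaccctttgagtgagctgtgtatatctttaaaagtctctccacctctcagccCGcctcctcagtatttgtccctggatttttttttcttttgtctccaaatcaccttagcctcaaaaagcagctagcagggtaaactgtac
The Sptssa window holds 31 CpG and the Sptssb window 9. The Sptlc2 window holds 19 CpG, the Sptlc3 window 1 and the Elovl4 window 35.

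The cultures carried the RNA of basal keratinocytes. The summed level of 5 basal markers (Krt5, Krt14, Trp63, Itga6, Itgb4) was 33965 to 36682 CPM (counts scaled to the library total) in IL-33 libraries and 33851 to 34970 CPM in untreated libraries. The 6 markers of suprabasal and granular keratinocytes (Krt1, Krt10, Ivl, Lor, Flg, Casp14), the layers in which the barrier is assembled, summed to 18.3 to 22.6 CPM in IL-33 libraries and 20.8 to 21.7 CPM in untreated libraries. Melanocyte markers summed to 1093 to 1187 CPM in IL-33 libraries and 1094 to 1147 CPM in untreated libraries. Fibroblast markers summed to 26.5 to 31.0 CPM in IL-33 libraries and 29.7 to 38.1 CPM in untreated libraries. Immune markers summed to 23.8 to 24.7 CPM in IL-33 libraries and 20.2 to 24.8 CPM in untreated libraries, and endothelial markers to 16.3 to 17.1 CPM in IL-33 libraries and 13.5 to 19.8 CPM in untreated libraries. Of the immune markers Cd207 and Cd3e were listed at 0 in every library, and Ptprc stayed under 12 deposited counts in each. Lyz2 had 0.364, 0.470 and 2.94 CPM in IL-33 libraries and 0.760, 0.193 and 0 CPM in untreated libraries. Most of the immune sum was Cd68, at 21.6 to 23.7 CPM with IL-33 and 20.0 to 24.8 CPM untreated. Most of the endothelial sum was Kdr, at 12.7 to 13.7 CPM with IL-33 and 11.6 to 15.8 CPM untreated. Sebocyte markers summed to 13.7 to 14.6 CPM in IL-33 libraries and 15.0 to 16.2 CPM in untreated libraries. The groups did not overlap, but the defining markers Mc5r and Awat1 were listed at 0 in every library. Most of the sebocyte sum was Soat1, at 12.6 to 13.6 CPM with IL-33 and 13.7 to 15.2 CPM untreated. No marker of the 7 lists passed edgeR's quasi-likelihood test with an adjusted p under 0.05. At an unadjusted p under 0.05 in edgeR there were 4 of 29 tested markers, beside 6.74% of all genes tested. The sums do not show them. Itgb4 had 1007, 1004 and 849 CPM in IL-33 libraries and 1112, 1131 and 1117 CPM in untreated libraries (log2 fold change -0.23, unadjusted p 0.00515 in edgeR). Ivl had 4.41, 2.94 and 4.85 CPM in IL-33 libraries and 5.12, 6.09 and 5.96 CPM in untreated libraries (log2 fold change -0.49, unadjusted p 0.0434 in edgeR). Col1a1 had 4.14, 2.41 and 3.60 CPM in IL-33 libraries and 12.6, 4.74 and 5.72 CPM in untreated libraries (log2 fold change -1.18, unadjusted p 0.0265 in edgeR). These 3 were lower in every IL-33 library than in any untreated library. Krt1, with a log2 fold change of 0.94 (unadjusted p 0.0409 in edgeR), had overlapping groups. Tyr and Soat1 were also lower, and Krt5 and Mlana higher, in every IL-33 library than in any untreated library. Of all genes tested, 13.7% had groups without overlap. The part of the markers in the results was not tested. In bulk RNA, fewer cells of a type and less RNA per cell cannot be told apart. Library totals were 34188173 to 44255925 deposited estimated counts in IL-33 libraries and 41456441 to 45266298 in untreated libraries, with IL-33 replicate 2 the shallowest.

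The levels of the 32 genes spanned the range from abundant to listed at 0. Levels between genes are given as FPKM, a value that is scaled to depth and to the length of the transcripts. Over all 6 libraries, 11 members had a mean of at least 10 FPKM, 22 had at least 1 FPKM and 10 were under 1 FPKM. These are the deposited gene values. For 10 members with at least 1 FPKM, the sum of the transcripts' FPKM was over 1.5 times the gene value. Sgms1 had a mean of 5.36 FPKM by gene (rank 16) and 21.6 FPKM by transcripts (rank 6), and Cers3 moved from rank 6 to 12. Spearman's rho of the 2 measures was 0.96 over the 32 members. The most abundant members were Degs1, Asah1, Cers2 and Sptssa, and the 11 also took in the ceramide synthase Cers3 and the elongases Elovl1, Elovl7 and Elovl6, whereas Pnpla1, Alox12b, Cyp4f39, Cers4, Acer1, Fa2h and Sptssb were under 0.5 FPKM. Sptssb and Fa2h stayed under 12 deposited counts, taken as about 3 fragments, in every library, which is a floor of 0.265 to 0.351 CPM. A gene listed at 0 need not be silent, since its RNA may lie below this floor. The 37 mitochondrial genes were also listed at 0 in every library, and the cause of that was not tested.

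**Figure D1:**
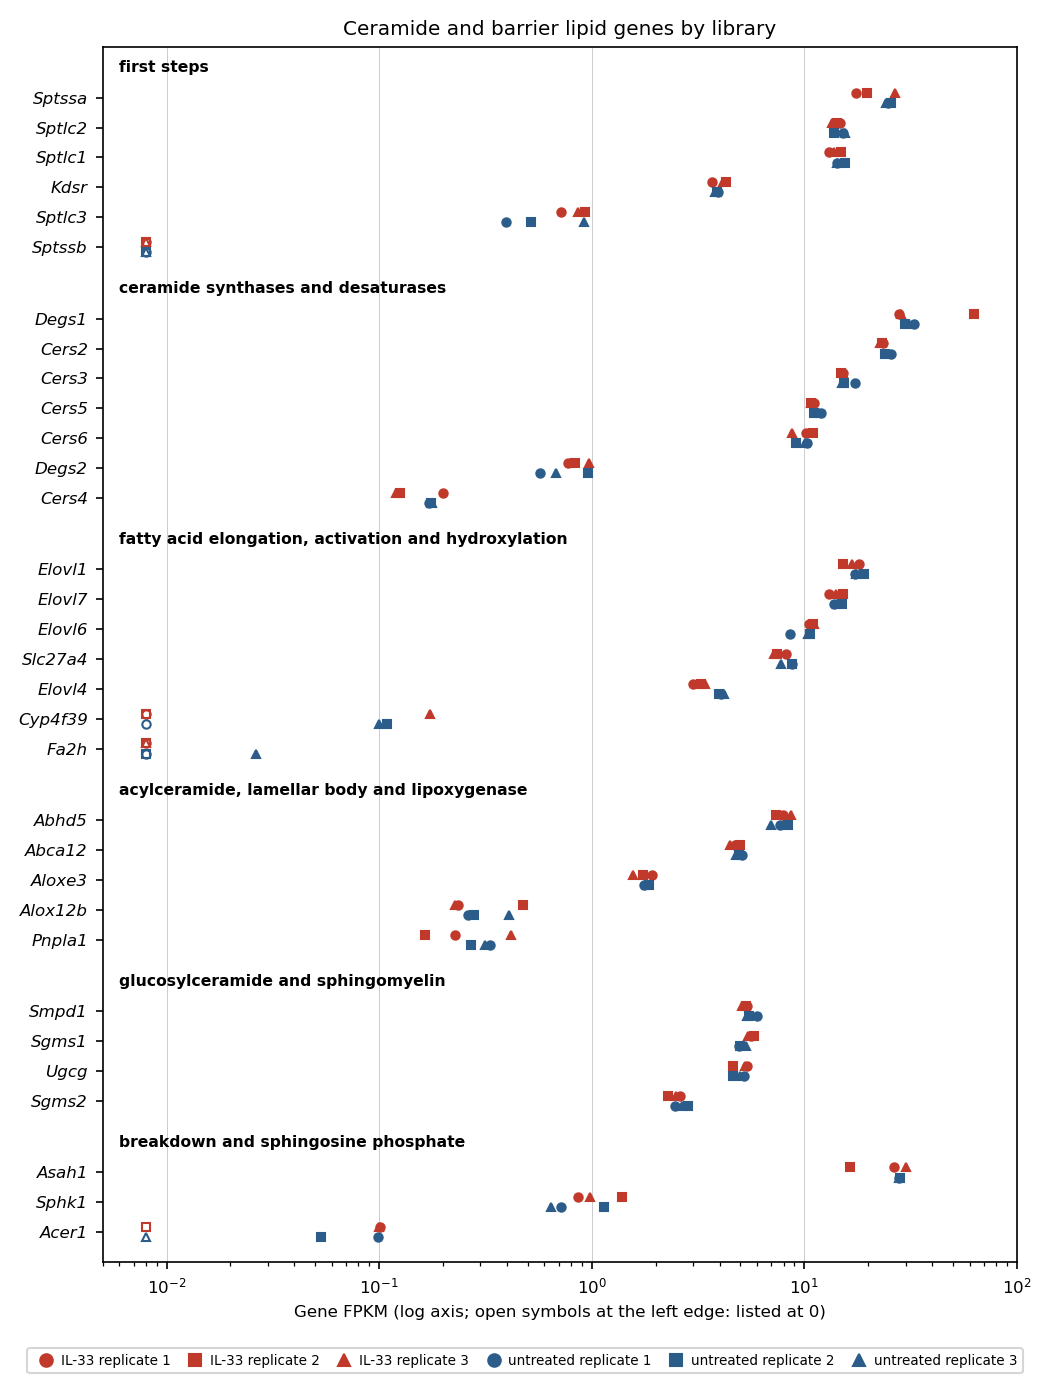
Gene FPKM of the 32 members in each library on a log axis, grouped by role, with IL-33 libraries in red above untreated libraries in blue and open symbols at the left edge for values listed at 0. Scarce genes such as Pnpla1, Sptlc3, Alox12b and Acer1 scatter widely, and among genes above 10 FPKM IL-33 replicate 2 stands off for Degs1 (63.3 FPKM) and Asah1 (16.4 FPKM).

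IL-33 for 12 h was compared with no treatment to ask which of these genes differed between the groups. None of the 29 members that passed the filter on low counts had an adjusted p under 0.05 by the quasi-likelihood test of edgeR. Of all 15778 genes tested, 0.0697% had one (0.0444% higher and 0.0254% lower with IL-33). The members that did not pass were Sptssb, Fa2h and Cyp4f39. DESeq2, limma-voom and limma on log2(FPKM + 0.1) also called 0 members, and the adjusted p of the members in edgeR ran from 0.682 to 0.994. At an unadjusted p under 0.05 in edgeR there were 2 members, Elovl4 lower and Sgms1 higher with IL-33, which is 6.90% of the members tested against 6.74% of all genes tested (3.42% higher and 3.31% lower). The CPM of the groups did not overlap for 3 members, namely Elovl4 and Cers2, lower with IL-33, and Sgms1, higher with IL-33. That is 10.3% of the members tested, against 13.7% of all genes tested (7.39% higher and 6.26% lower). Both shares were close to those of all genes.

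The 95% interval of the difference lay within 1.5-fold in both directions for 19 of the 29 tested members (65.5%, against 61.9% of all genes tested). The log2 fold change of IL-33 over untreated was below 0 for 18 members and above 0 for 11 (62.1% below, against 49.5% of all genes tested). Its median over the members was -0.06 and its range -0.34 to 0.55, beside a median of 0.00 over all genes tested. Without IL-33 replicate 3 the median of the members was -0.03. A p that misses the threshold does not show that the levels were alike, and the intervals below give the sizes of difference that the data leave possible.

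**Figure D2:**
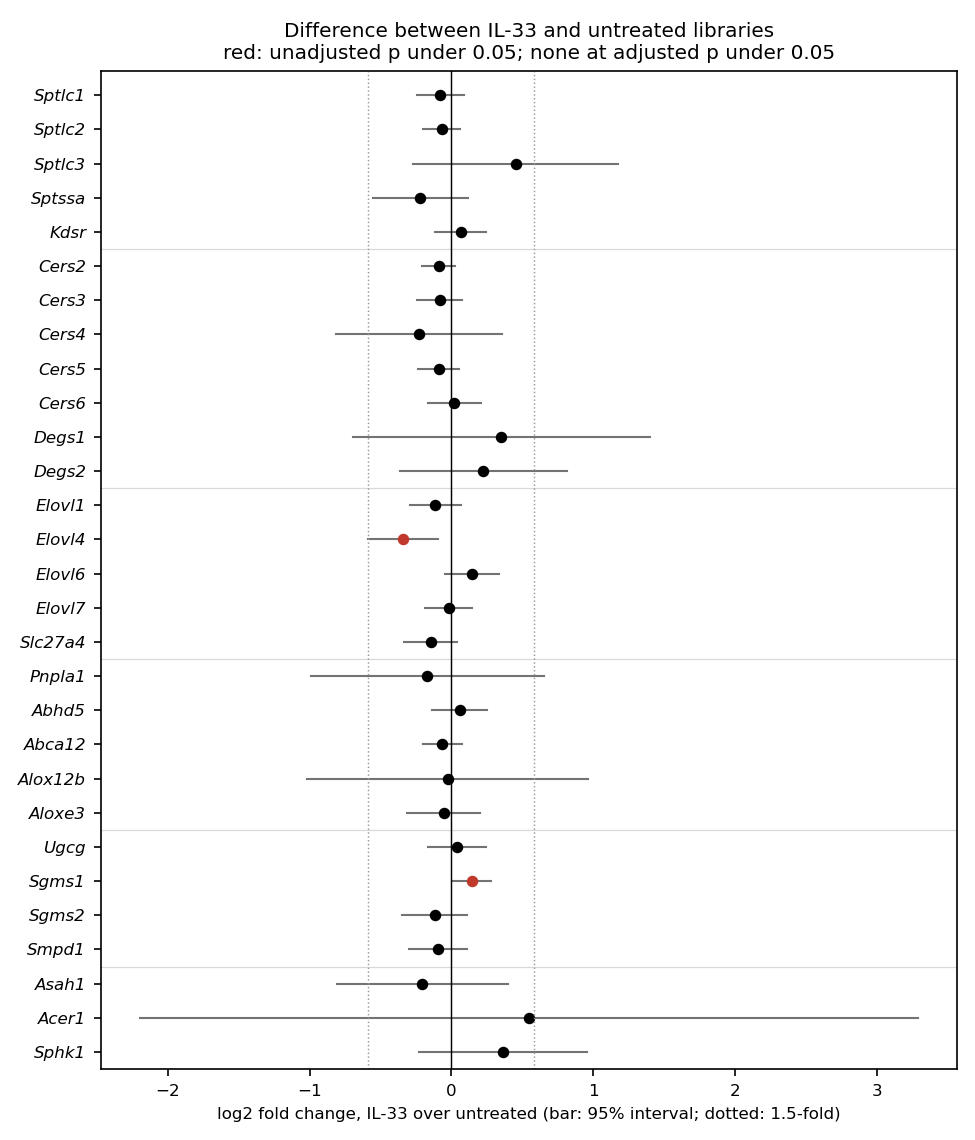
Log2 fold change of IL-33 over untreated for the 29 tested members by role, with 95% intervals from edgeR and dotted lines at 1.5-fold. Only the intervals of Elovl4 and Sgms1 lie clear of 0, and neither gene passed at an adjusted p under 0.05.

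Of the subunits of serine palmitoyltransferase, Sptssa, Sptlc2 and Sptlc1 were abundant. Sptssa encodes a small subunit that activates the enzyme, and had 17.5, 19.7 and 26.7 FPKM in IL-33 libraries against 24.8, 25.6 and 24.2 FPKM in untreated libraries. The first and second IL-33 libraries were below every untreated library and the third was above them all. Its log2 fold change was -0.22 (SE 0.145, 95% interval -0.56 to 0.12, adjusted p 0.814 in edgeR). Without IL-33 replicate 3 the log2 fold change was -0.42 (SE 0.0869) with an adjusted p of 0.105 in edgeR, the lowest of any member under any setting, and over its 17 alternatives the adjusted p ran from 0.105 to 0.981. Sptlc2, a catalytic subunit, had 14.7, 14.3 and 13.6 FPKM in IL-33 libraries and 15.2, 13.9 and 15.6 FPKM in untreated libraries. These overlapped, with a log2 fold change of -0.07 (SE 0.0576). Sptlc1, the partner subunit that every form of the enzyme needs, lay between 13.1 and 15.6 FPKM, and Kdsr, the reductase of the next step, between 3.68 and 4.30 FPKM.

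The alternative subunits of the same enzyme were scarce. Sptlc3, the other catalytic subunit, had 0.720, 0.926 and 0.864 FPKM in IL-33 libraries against 0.396, 0.516 and 0.921 FPKM in untreated libraries. The highest untreated library overlapped the IL-33 range, and the log2 fold change was 0.45 (SE 0.323, adjusted p 0.824 in edgeR). It was 0.21 without untreated replicate 1 and 0.88 (SE 0.276) without untreated replicate 3, and its adjusted p from edgeR, DESeq2 or limma lay between 0.513 and 1.00 over 17 alternatives. Sptlc2 had 15.5 to 38.3 times the FPKM of Sptlc3 over the 6 libraries and made up 94.4 ± 0.793% of the pair in IL-33 libraries and 96.1 ± 1.53% in untreated libraries (SD, n = 3 each). Sptssb, the other small subunit, was listed at 0 in all 6 libraries.

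Ceramide synthases differ in the length of the fatty acid they attach. Cers2, which attaches very long chains, had the highest level of the family at 23.4, 23.2 and 22.8 FPKM in IL-33 libraries against 25.6, 23.9 and 24.5 FPKM in untreated libraries. Every IL-33 library was below every untreated library, but the gap was small. In CPM the values were 95.7, 94.7 and 93.6 with IL-33 and 104, 97.9 and 100 untreated. The log2 fold change was -0.09 (SE 0.0516, 95% interval -0.20 to 0.03, adjusted p 0.777 in edgeR). Cers2 (ENSMUSG00000015714.11, chr3:95314791-95323599 on GRCm38) overlaps Setdb1 on the opposite strand, which had a mean of 3674 deposited counts beside 4136 for Cers2, and no source used here says whether the counting used strand. Cers3, the synthase of ultra-long-chain ceramides that mice need for a skin barrier, had overlapping levels between 14.8 and 17.4 FPKM. Cers5 and Cers6, which attach shorter chains, lay between 10.7 and 12 FPKM and between 8.81 and 11 FPKM. Cers4 was the lowest at 0.200, 0.126 and 0.120 FPKM in IL-33 libraries and 0.171, 0.176 and 0.178 FPKM in untreated libraries.

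The make-up of the synthase family was alike in shape in the 6 libraries. Cers2 made up 39.1 ± 0.504% of the summed synthase FPKM in IL-33 libraries and 39.6 ± 0.538% in untreated libraries (SD, n = 3 each). Cers3 held 25.4% with IL-33 and 25.6% untreated, Cers5 held 18.4% with IL-33 and 18.6% untreated, and Cers6 held 16.9% with IL-33 and 15.9% untreated. The deposited gene FPKM was not always the sum of the transcripts' FPKM. On the sum of transcripts, Cers2 held 44.8% and Cers3 16.4% over all libraries, against 39.3% and 25.5% on the gene values.

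The desaturase that completes the standard ceramide carried the widest spread of any abundant member. Degs1, the dihydroceramide desaturase, had 27.9, 63.3 and 28.5 FPKM in IL-33 libraries against 32.7, 29.8 and 31.0 FPKM in untreated libraries. IL-33 replicate 2 was the highest library and the other IL-33 libraries were the lowest of the 6. It gave a log2 fold change of 0.35 (SE 0.389, 95% interval -0.70 to 1.40), and -0.15 (SE 0.0643) without IL-33 replicate 2. Degs2, which adds the hydroxyl group of phytoceramides, had 0.774, 0.835 and 0.970 FPKM with IL-33 and 0.571, 0.966 and 0.678 FPKM untreated. Its deposited count averaged 97.5 beside 1554 for Evl, which overlaps it on the opposite strand. Degs1 had 29.4 to 75.8 times the FPKM of Degs2.

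**Figure D3:**
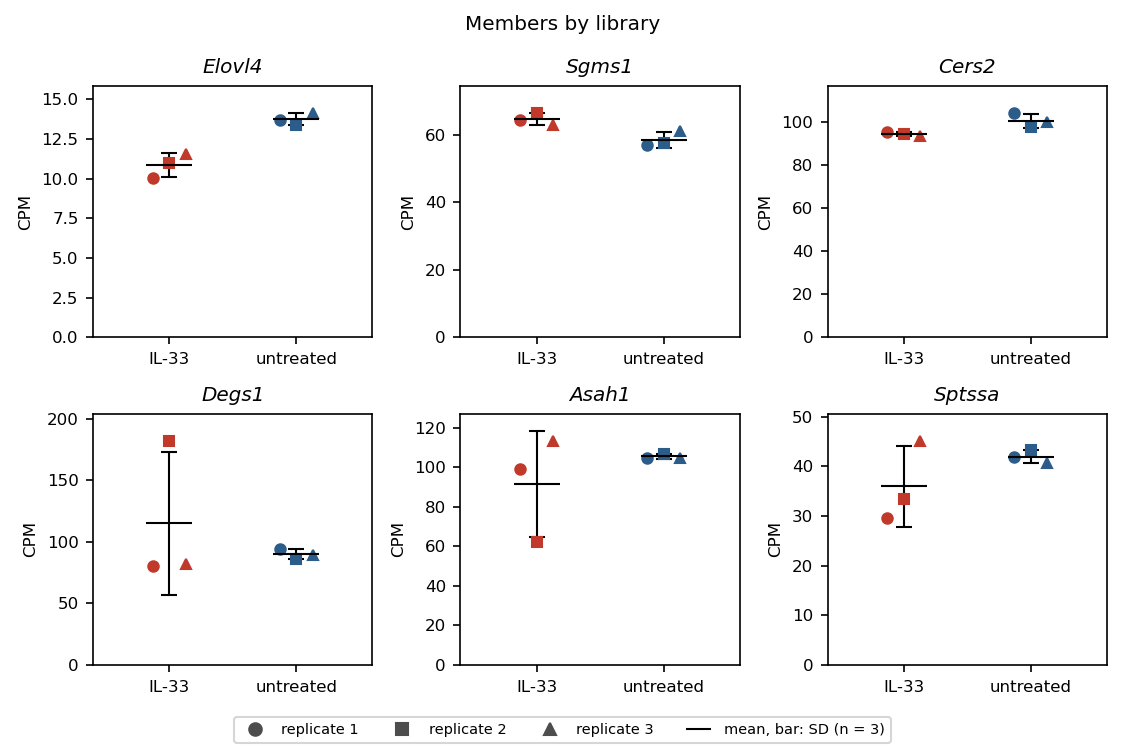
CPM of 6 members in the 3 IL-33 libraries (left, red) and the 3 untreated libraries (right, blue), with the mean and SD of each group. Elovl4 and Cers2 are lower and Sgms1 is higher in every IL-33 library, IL-33 replicate 2 stands apart at 182 CPM for Degs1 and 62.0 CPM for Asah1, and IL-33 replicate 3 lies above the other IL-33 libraries for Sptssa.

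Among the genes that lengthen and prepare fatty acids, Elovl4 had the smallest p-value of all members. ELOVL4 makes the ultra-long chains of acylceramides, and mice without it lose the skin barrier. Its level was 2.98, 3.26 and 3.42 FPKM in IL-33 libraries against 4.08, 3.97 and 4.21 FPKM in untreated libraries. All 3 IL-33 libraries were below all 3 untreated libraries. In CPM the mean was 10.9 ± 0.767 with IL-33 and 13.8 ± 0.381 untreated (SD, n = 3 each). The log2 fold change was -0.34 (SE 0.11, 95% interval -0.59 to -0.09), with an unadjusted p of 0.0118 in edgeR. The adjusted p was 0.682 in edgeR and lay between 0.349 and 0.958 over 17 alternatives, so the difference did not pass. Of the markers given above, Itgb4, Ivl, Col1a1, Tyr and Soat1 were also lower in every IL-33 library. Krt5 and Mlana were higher in every IL-33 library. The part of these markers in the Elovl4 difference was not tested. The gene (ENSMUSG00000032262.13) lies at chr9:83778692-83806277 on the minus strand of GRCm38, and its leading transcript starts 53 bases after the RefSeq start, just past the end of the promoter window shown above.

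The other elongases gave overlapping groups. Elovl1, which lengthens saturated very-long-chain fatty acids, had the highest level at 18.1, 15.2 and 16.7 FPKM with IL-33 and 17.4, 19.2 and 17.5 FPKM untreated. Its values carry the uncertainty of Cdc20, which overlaps it on the opposite strand with a mean of 7380 deposited counts beside 2236 for Elovl1. Elovl7 followed at 13.1, 15.3 and 14.2 FPKM with IL-33 and 13.8, 15.0 and 14.3 FPKM untreated. On gene FPKM, Elovl1 was above Elovl7 in every library except IL-33 replicate 2. On the sum of transcripts Elovl1 was above Elovl7 in every library. There it held 45.6 to 53.2% of the 4 elongases, and Elovl7 22.5 to 27.5%. Elovl6, which lengthens palmitate, lay between 8.57 and 11.1 FPKM. As a share of the summed FPKM of the 4 elongases, Elovl4 held 7.15 ± 0.438% in IL-33 libraries and 8.82 ± 0.629% in untreated libraries (SD, n = 3 each), and the highest IL-33 share of 7.52% was below the lowest untreated share of 8.11%. This share rests on the same Elovl4 values as the test and is not separate support. Elovl6 held 24.3 ± 0.574% in IL-33 libraries and 21.3 ± 1.53% in untreated libraries.

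**Figure D4:**
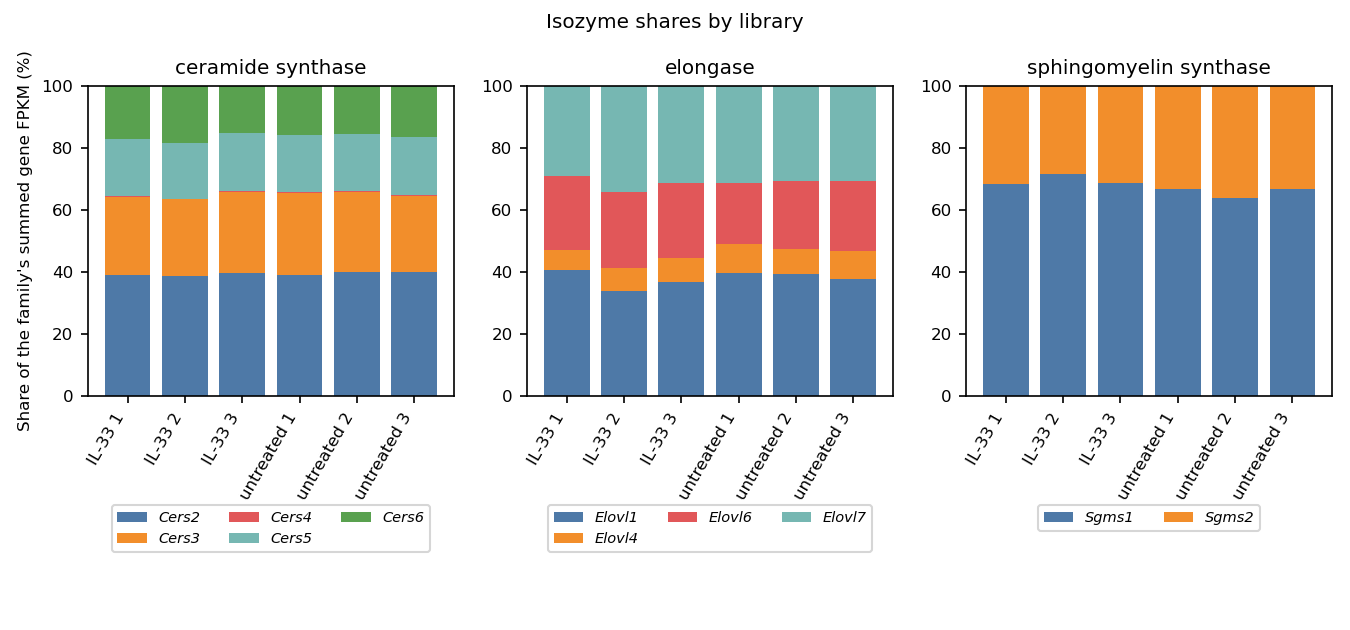
Share of each isozyme in the summed gene FPKM of its family, for 3 families, with the IL-33 libraries left of the untreated libraries. The order of the ceramide synthases by share changes little between libraries, Elovl4 is the smallest elongase share in each library, and Sgms1 holds more than Sgms2 throughout.

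The remaining genes that prepare the fatty acid were low apart from Slc27a4. Slc27a4, an acyl-CoA synthetase whose loss gives mice tight skin with a defective barrier, lay between 7.19 and 8.80 FPKM, with a log2 fold change of -0.15. Fa2h, the fatty acid 2-hydroxylase, was listed at 0 in 5 libraries and at 0.0264 FPKM in untreated replicate 3. Cyp4f39, the mouse counterpart of the human omega-hydroxylase CYP4F22, had 0, 0 and 0.173 FPKM in IL-33 libraries and 0, 0.108 and 0.0995 FPKM in untreated libraries. These counts were too low for the test, so a difference was not detectable at this depth.

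The late steps of the cornified barrier showed a split in level within both groups. Abhd5, the co-activator of lipid acyl hydrolases, had 7.95, 7.38 and 8.63 FPKM in IL-33 libraries against 7.66, 8.35 and 7.0 FPKM in untreated libraries. Abca12, the transporter that loads lamellar bodies, had 4.75, 4.97 and 4.47 FPKM with IL-33 and 5.11, 4.93 and 4.79 FPKM untreated. The 2 groups overlapped for both genes, Abhd5 overlaps an antisense gene with a mean of 279.7 deposited counts beside 2195 of its own, and the log2 fold change of Abca12 was -0.06 (SE 0.0614). Pnpla1, which transfers linoleate to make acylceramide, had only 0.228, 0.164 and 0.418 FPKM in IL-33 libraries and 0.332, 0.271 and 0.314 FPKM in untreated libraries. Alox12b, the first of the 2 lipoxygenases that oxidise that linoleate, had 0.234, 0.478 and 0.228 FPKM with IL-33 and 0.263, 0.279 and 0.409 FPKM untreated. Its log2 fold change of -0.03 had an SE of 0.443, so sizeable differences in either direction remain possible. Aloxe3, the next lipoxygenase, lay between 1.56 and 1.93 FPKM and had 3.65 to 8.23 times the FPKM of Alox12b over the 6 libraries. On the sum of transcripts the ratio was 8.20 to 18.4. The suprabasal and granular markers that belong to the layers with these enzymes were scarce in both groups, as given above.

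The steps that store ceramide held the member with the smallest p-value among higher values. Sgms1, the Golgi sphingomyelin synthase, had 5.62, 5.79 and 5.47 FPKM in IL-33 libraries against 4.96, 5.00 and 5.34 FPKM in untreated libraries. All 3 IL-33 libraries were above all 3 untreated libraries, the nearest pair being 5.47 with IL-33 and 5.34 untreated. In CPM the mean was 64.5 ± 1.79 with IL-33 and 58.4 ± 2.30 untreated (SD, n = 3 each). The log2 fold change was 0.14 (SE 0.0612, 95% interval 0.01 to 0.28), with an unadjusted p of 0.0429 in edgeR. The adjusted p was 0.740 in edgeR and lay between 0.521 and 0.958 over 17 alternatives. The gene (ENSMUSG00000040451.17) lies at chr19:32122727-32389714 on GRCm38. Its paralog Sgms2, which acts at the plasma membrane, had 2.60, 2.29 and 2.49 FPKM with IL-33 and 2.48, 2.85 and 2.68 FPKM untreated. Sgms1 held 69.6 ± 1.81% of the pair in IL-33 libraries and 65.7 ± 1.71% in untreated libraries, and on the sum of transcripts 84.2% with IL-33 and 81.1% untreated. Ugcg, the glucosylceramide synthase, had 5.39, 4.6 and 5.25 FPKM with IL-33 and 5.23, 4.61 and 4.99 FPKM untreated. Smpd1, the acid sphingomyelinase that returns ceramide from sphingomyelin, had 5.37, 5.35 and 5.10 FPKM with IL-33 and 6.03, 5.50 and 5.36 FPKM untreated. Both genes gave overlapping groups.

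Of the 2 ceramidases and the sphingosine kinase, Asah1 was abundant and unevenly measured. Asah1, the lysosomal acid ceramidase, had 26.4, 16.4 and 30.1 FPKM in IL-33 libraries against 27.9, 28.3 and 27.9 FPKM in untreated libraries. The untreated libraries were nearly equal, and IL-33 replicate 2 was far below the rest. Its log2 fold change was -0.20 (SE 0.233, 95% interval -0.81 to 0.40) and 0.01 (SE 0.0670) without IL-33 replicate 2. Sphk1, which phosphorylates sphingosine, had 0.862, 1.39 and 0.981 FPKM with IL-33 and 0.718, 1.15 and 0.642 FPKM untreated. The groups overlapped, with a log2 fold change of 0.36 (SE 0.263). Acer1, an alkaline ceramidase of differentiating keratinocytes, had 0.101, 0 and 0.1 FPKM with IL-33 and 0.0991, 0.0534 and 0 FPKM untreated, too little to show a difference at this depth.

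IL-33 replicate 2 stood apart for Degs1 and Asah1 and not for genes in general. Among 9315 genes with a mean of at least 10 CPM, that library was over 1.5 times the highest other library for 9 genes, with Degs1 among them. It was below the lowest other library divided by 1.5 for 22 genes, with Asah1 among them. The other 5 libraries had 4 to 9 and 16 to 25 such genes, and no member was among them. Without IL-33 replicate 2, edgeR left 1 member at an unadjusted p under 0.05, Elovl4. That is 3.45% of the members tested, against 5.03% of all genes tested. No member had an adjusted p under 0.05 in edgeR, against 0.0678% of all genes tested. Groups did not overlap for 9 members, which is 31% of the members tested against 22.1% of all genes tested. For any gene, 2 libraries are less likely to overlap with 3.

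At the level of transcripts, 149 annotated transcripts of the members were in the deposited table, 127 were above 0 in some library and 49 had a mean of at least 0.5 FPKM. Of 71 member transcripts that passed the filter, none had an adjusted p under 0.05 by edgeR (0.0299% of 40163 tested transcripts), none under DESeq2, and none at an unadjusted p under 0.05 in edgeR (4.24% of tested transcripts). The transcript test was less precise. Its median SE was 0.345 over the 48 tested member transcripts with a mean of at least 0.5 FPKM. In the gene test it was 0.0904 over the 29 tested members, with no such limit on FPKM. The transcript with the smallest p was Elovl1-207, with 6.67, 6.41 and 7.15 FPKM in IL-33 libraries against 5.67, 3.42 and 2.92 FPKM in untreated libraries. All IL-33 libraries were above all untreated libraries, with a log2 fold change of 0.75 (SE 0.302) and an unadjusted p of 0.0513 in edgeR. Elovl4-201, which held 99.4% of the FPKM of Elovl4, had 3.01, 3.27 and 3.44 FPKM with IL-33 and 4.11, 3.99 and 4.23 FPKM untreated. This is the pattern of the gene, with a log2 fold change of -0.35 and an unadjusted p of 0.0561 in edgeR. Cers2-201 had 36.8, 36.6 and 36.9 FPKM with IL-33 and 40.8, 38.4 and 39.2 FPKM untreated (unadjusted p 0.0617 in edgeR). Sgms1-212 held 81.5% of the summed transcript FPKM of Sgms1, a sum above the gene FPKM as given above. It had 19.7, 19.5 and 17.4 FPKM with IL-33 and 14.5, 16.1 and 18.2 FPKM untreated. Its groups overlapped, unlike those of the gene (unadjusted p 0.109 in edgeR). Elovl1-203 came next, at 1.00, 0.881 and 0.812 FPKM with IL-33 and 1.01, 6.56 and 0.797 FPKM untreated (unadjusted p 0.126 in edgeR). A single untreated library set that value apart.

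For 18 of the 25 members with a transcript of at least 0.5 FPKM, 1 transcript held at least 80% of the summed FPKM. The other 7 were Cers6, Elovl1, Elovl7, Abhd5, Aloxe3, Sgms2 and Sphk1. In several of them the libraries of 1 group differed in which transcript was assigned the signal. Cers6-201, the leading transcript, was even at 11.8, 12.5 and 11.1 FPKM in IL-33 libraries and 11.8, 11 and 11.5 FPKM in untreated libraries. Cers6-206 had 5.37, 0 and 0 FPKM in IL-33 libraries and 6.71, 0 and 5.71 FPKM in untreated libraries, while the gene stayed between 8.81 and 11 FPKM. Elovl1-201 had 17.8, 14 and 9.67 FPKM with IL-33 and 13.3, 13.3 and 20.0 FPKM untreated. Elovl1-202 had 5.26, 4.49 and 14.4 FPKM with IL-33 and 11.6, 12.9 and 4.85 FPKM untreated, and was low in the libraries in which Elovl1-201 was highest. Abhd5-204 had 14.2, 9.29 and 9.57 FPKM with IL-33 and 10.0, 10.2 and 9.39 FPKM untreated, beside 0.756, 5.37 and 7.88 FPKM with IL-33 and 4.65, 6.42 and 4.18 FPKM untreated for Abhd5-202. In Cers6-206 and both Elovl1 transcripts, the range within the IL-33 group was wider than the gap between the group means.

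The leading transcripts of the other 4 members gave overlapping groups. Elovl7-201 had 11.7, 13.1 and 12.1 FPKM with IL-33 and 12.2, 12.2 and 12.8 FPKM untreated, and Elovl7-202, annotated for nonsense-mediated decay, lay between 2.35 and 4.76 FPKM. Aloxe3-201 lay between 2.32 and 3.41 FPKM and Aloxe3-203, a retained intron, between 0.148 and 0.653 FPKM. Sgms2-201 lay between 2.31 and 2.91 FPKM, and Sgms2-203 had 1.32, 2.39 and 1.64 FPKM with IL-33 and 1.51, 2.44 and 1.80 FPKM untreated. Sphk1-215 had 0.759, 1.91 and 0.413 FPKM with IL-33 and 0.336, 2.16 and 0.382 FPKM untreated. In both Sgms2-203 and Sphk1-215 the library numbered 2 was the highest of its group with and without IL-33. Sphk1-202 lay between 0.247 and 0.935 FPKM.

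Transcripts of Asah1 and Degs1 were looked at after their values were seen. Degs1-201 had 35.1, 79.3 and 35.7 FPKM with IL-33 and 41.1, 37.2 and 38.9 FPKM untreated, so the high library of Degs1 lay in its main transcript. Asah1-203, a retained intron, had 19.5, 1.26 and 3.12 FPKM with IL-33 and 5.02, 2.58 and 2.32 FPKM untreated. Asah1-201 had 17.0, 18.8 and 34 FPKM with IL-33 and 30, 32.3 and 32.1 FPKM untreated.

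The other genes of the pathway were tested in the same way. Of 58 further genes listed for control of the first enzyme, turnover, fatty acid supply, the cornified barrier and nuclear receptors, 57 were found and 50 were tested. None had an adjusted p under 0.05 by edgeR, DESeq2, limma-voom or limma on FPKM, and 3 had an unadjusted p under 0.05 in edgeR (6.00%, against 6.74% of all genes tested). Groups did not overlap for 6 of the 50 (12.0%, against 13.7% of all genes tested), and the median log2 fold change was -0.02. The smallest p was that of Nipal4, a gene of inherited ichthyosis in humans, with 18.5, 16.4 and 16.8 FPKM in IL-33 libraries against 20.6, 20.1 and 20.9 FPKM in untreated libraries. Every IL-33 library was below every untreated library. That is a log2 fold change of -0.26 (SE 0.0635, unadjusted p 0.00252), with an adjusted p of 0.490 in edgeR that lay between 0.121 and 0.910 over the alternatives. Ormdl1, a brake on serine palmitoyltransferase, had 6.13, 6.00 and 6.44 FPKM with IL-33 and 6.92, 7.35 and 6.86 FPKM untreated (unadjusted p 0.0310, adjusted p 0.740 in edgeR). Aldh3a2, the fatty aldehyde dehydrogenase lost in Sjögren-Larsson syndrome in humans, had 6.60, 7.09 and 7.24 FPKM with IL-33 and 6.17, 6.5 and 6.08 FPKM untreated (unadjusted p 0.0485, adjusted p 0.740 in edgeR). Without IL-33 replicate 2, Nipal4 alone of these 3 had an unadjusted p under 0.05 in edgeR.

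The promoters of the members were compared in CpG content, which the choice of members did not use. A window of 300 bases was matched for 29 of the 32 members, all but Fa2h, Aloxe3 and Asah1, among 32851 RefSeq promoters. The ratio of observed to expected CpG, given the C and G content, was at least 0.6 in 15 of the 29, against 35.8% of all promoters. These promoters were taken whatever the level of their genes, and the share among expressed genes was not computed. For Sgms1, Sgms2, Sphk1 and Cyp4f39 the most abundant transcript starts over 1000 bases from the window's start site, so their windows do not describe it. Among the other 25, the ratio was at least 0.6 for 13 of 18 members with a mean of at least 1 FPKM and for 1 of 7 members under 1 FPKM. The median ratio was 0.721 in the abundant members (0.308 to 1.08) and 0.445 in the scarce ones (0.0958 to 0.621). Spearman's rho of the ratio and the FPKM was 0.40 across these 25 genes, which share the same libraries and are not independent replicates. The pairs printed above, chosen because their levels differ, fell on either side of 0.6. Sptssa had a ratio of 0.890 and a mean of 23.1 FPKM, while Sptssb had 0.445 and was listed at 0. Sptlc2 had a ratio of 0.762 at 14.5 FPKM, and Sptlc3 0.0958 at 0.724 FPKM. The paralogs Degs1 and Degs2 did not, with a ratio of 0.618 at 35.6 FPKM for Degs1 and of 0.621 at 0.799 FPKM for Degs2. Of the 25 members within that limit of 1000 bases, 5 with means above 1 FPKM had ratios under 0.6. They were Cers3 (0.364), Abca12 (0.308), Elovl1 (0.534), Smpd1 (0.538) and Slc27a4 (0.548). Outside the limit, Sgms2 had a ratio of 0.0891 at a mean of 2.56 FPKM.

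**Figure D5:**
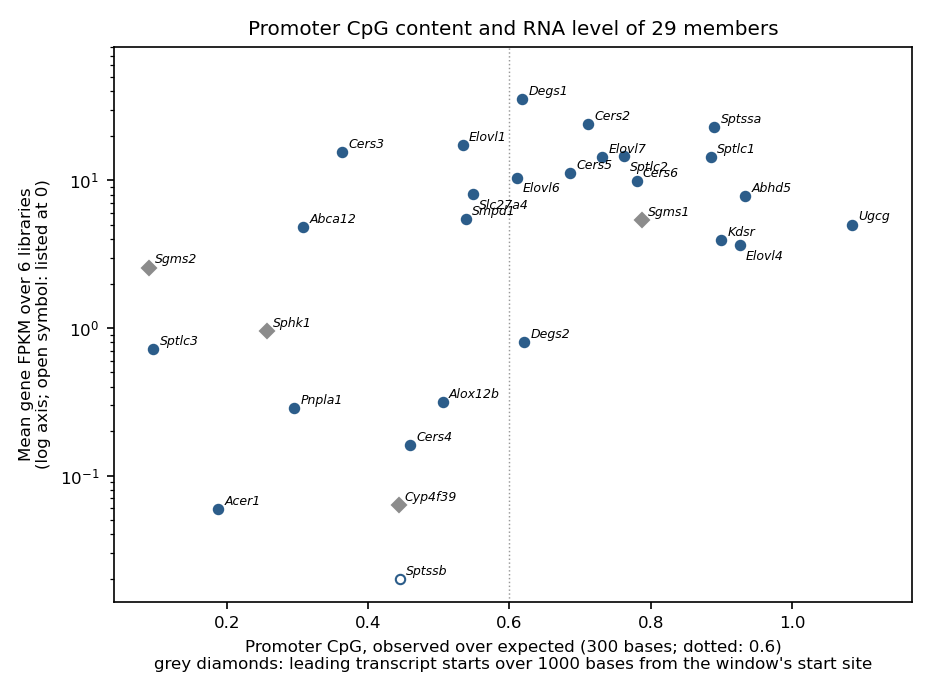
Mean gene FPKM over 6 libraries (log axis, open symbol for a gene listed at 0) against the ratio of observed to expected CpG in the promoter window of 29 members, with grey diamonds for members whose most abundant transcript starts elsewhere. Of the members right of the dotted line at 0.6, only Degs2 has a mean under 1 FPKM.

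Short motifs were searched in the same windows on both strands. The E-box CACGTG was in 4 of 29 windows (13.8%, against 7.15% of all promoters), those of Cers2, Cers6, Degs1 and Elovl4. The box CCAAT was in 10 windows (34.5%, against 37.4% of all promoters). The letters TGANTCA of an AP-1 site were in 0 windows, against 7.81% of all promoters. A missing match says only that these letters are not in this window.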

How the data were processed

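The 3 IL-33 and 3 untreated libraries, numbered 1 to 3 in the labels, were compared. Tools listed in the submitters' processing notes are StringTie 1.3.4d, HISAT2 2.1.0, DESeq2 1.18.1 and FastQC 0.11.7, with mm10 as the build and no role for each. The deposited estimated counts are whole numbers per gene and per transcript. Among low transcript counts, 1 was the most frequent, with smaller local peaks at multiples of 4. In IL-33 replicate 1, 5125 transcripts had a count of 1 and 2405 a count of 4. From these peaks 4 deposited counts were taken as about 1 fragment, which was not tested. This scale gives 8547043 to 11316574 fragments per library. Floors cover counting error only. The deposited FPKM values were made by the authors from the same features. The table held 52550 Ensembl identifiers, 52403 with a symbol. Positions come from GENCODE M21 on GRCm38, which shares 97.16% of transcript identifiers and versions, and promoters from RefSeq on GRCm38.p6.

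All genes were tested together with edgeR's quasi-likelihood test (edgeR 4.0.16, R 4.3.3) on the deposited counts, with TMM scaling, a robust fit, filterByExpr at a minimum count of 10 and Benjamini-Hochberg adjustment over all tested genes at 0.05. Transcripts were tested likewise. Log2 fold changes are IL-33 over untreated, with the standard error (SE). CPM is TMM-scaled, with the standard deviation (SD). Replicate pairs differed by more than sampling noise (median chi-square 1.98 to 2.67 times that of sampling), so none was counted as a copy. The alternatives were DESeq2 1.42.0, limma 3.58.1 (voom, and log2 FPKM with a pseudocount of 0.1 or 1), other scaling and filters, deposited counts divided by 4, an adjusted p under 0.1, the replicate number as a block and each library left out. Values in every library are given for members with an unadjusted p under 0.05, without overlap between groups, or among the 2 highest and 2 lowest by FPKM of their role. Transcripts named are the 5 with the smallest p and the leading 2 of each member whose leading transcript held under 80% of the FPKM. The members and all lists were chosen with earlier results of these data known.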

Additional observations from a re-analysis of the deposited data

How the results depend on the processing

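The count of 0 called members held under every alternative, including an adjusted p under 0.1, and so did the counts of 0 called genes among the other pathway genes and 0 called member transcripts. The count over all genes was 11 and moved to 71 with DESeq2, 17 with no filter on low counts, 5 with limma-voom and 4 with each fit on log2 FPKM. It ran from 11 to 90 with 1 library left out, at 20 when IL-33 replicate 1 was dropped, 90 when IL-33 replicate 3 was and 18 when untreated replicate 3 was. The count over all transcripts was 12, and 540 with DESeq2, 0 with the replicate block and 6 to 28 with 1 library left out. The median log2 fold change of the members was -0.0648. With 1 library left out it ran from -0.0704 to -0.0254, the last without IL-33 replicate 3, and under the other alternatives from -0.0753 with no filter on low counts to -0.0539 with log2(FPKM + 1). The counts of members with an unadjusted p under 0.05 and without overlap, 2 and 3, were 1 and 9 without IL-33 replicate 2. Replicate numbers did not pair the libraries (correlation of same-numbered deviations 0.0309, -0.00453 and -0.0231). With the replicate block 8 genes and 0 members were called and the median was -0.0670. Of 481 values of single members under alternatives, 15 changed sign, all with 1 library left out, and 19 of 29 members never did. The log2 fold changes of these 10, as the lowest and highest with 1 library left out, were -0.0532 to 0.104 for Cers6, -0.146 to 0.555 for Degs1, -0.0776 to 0.0364 for Elovl7, -0.627 to 0.0823 for Pnpla1, -0.00294 to 0.121 for Abhd5, -0.443 to 0.190 for Alox12b, -0.131 to 0.0193 for Aloxe3, -0.0110 to 0.105 for Ugcg, -0.385 to 0.00995 for Asah1 and -0.0419 to 1.46 for Acer1. On the sum of transcript FPKM, chosen after seeing the data as were the counts without IL-33 replicate 2, the share of its family was 82.7% for Sgms1, 24.3% for Elovl7, 44.8% for Cers2 and 16.4% for Cers3, against 67.6%, 31.3%, 39.3% and 25.5% on gene FPKM. The cause of these changes was not tested. Depth limits the 7 members under 0.5 FPKM.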
